A study of Mus musculus with 2 samples.

Results

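The natural killer (NK) cells of subcutaneous MC38 tumors numbered 83 among the 25402 cells kept from 2 single-cell RNA sequencing (scRNA-seq) libraries, with 48 cells from the *Lmo7+/+* host and 35 from the *Lmo7-/-* host. They were chosen on counts of unique molecular identifiers (UMIs), each of which stands for 1 captured RNA molecule. A kept cell had 500 genes or more, 1000 UMIs or more and no more than 15% of its UMIs from mitochondrial genes. An NK cell also had at least 2 UMIs summed over *Ncr1*, *Klrb1c*, *Klre1* and *Klra8*, no UMI of *Cd3e*, *Cd3d* or *Cd3g*, and at most 2 UMIs summed over *C1qa*, *C1qb* and *C1qc*. The levels of those genes among the members follow from the choice and are descriptions.

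NK cells are innate lymphocytes that kill stressed or transformed cells by releasing perforin and granzymes and that recruit dendritic cells with chemokines such as XCL1 and CCL5. They sense their targets through germline-encoded receptors, an activating set that signals through adaptors such as TYROBP and FCER1G, and an inhibitory set that reads MHC class I on the target. In mice the Ly49 receptors, encoded by the *Klra* genes, are displayed in different combinations on different NK cells.

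The study asked what loss of LMO7, a LIM domain protein, does to the tumor microenvironment. Hosts were female C57BL/6 mice, 6 to 8 weeks old at injection, and were either wild type or carried a knockout of *Lmo7* in the whole animal, so the NK cells of the knockout host carried the deletion too. The MC38 colon cancer cells themselves were the same unedited line in both hosts. Tumors were dissociated, red blood cells were lysed, and live cells were sorted and run on the 10x Chromium system. Each genotype had 1 library, the number of tumors in each is not given in the sources used here, and both libraries were pooled for sequencing. The genotype of the host and the library therefore cannot be told apart, no test between genotypes was possible, and the intervals given below are 95% intervals that cover counting error alone and not the spread between cells or animals.

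About 10000 sorted cells were the stated input of a library, beside 16208 droplets in the *Lmo7+/+* matrix with 98582479 UMIs and 15163 droplets in the *Lmo7-/-* matrix with 80648345 UMIs. The filters left 13542 and 11860 cells. The NK cells held 168596 UMIs in *Lmo7+/+* and 118958 in *Lmo7-/-*, and the median cell had 2166 against 2361 UMIs and 1105 against 1230 genes. Depth per NK cell was thus alike in both libraries. The matrices shared 279 barcodes, carried by 2 of the *Lmo7+/+* and 0 of the *Lmo7-/-* NK cells.

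A few cells stood apart and weigh on many summed counts. There were 2 *Lmo7+/+* NK cells and 1 *Lmo7-/-* NK cell over 10000 UMIs, which held 29.8% and 30.6% of all NK UMIs. One *Lmo7+/+* cell of 24507 UMIs held 221 UMIs of proliferation genes, 204 of *Gzmb* and 57 of *Il2rb*. The other, of 25772 UMIs, held 11 UMIs of collagen genes, 32 of MHC class II genes, 1 of *Nkg7* and 0 of *Gzma*, so its content went against an NK identity. The *Lmo7-/-* cell of 36357 UMIs held 336 UMIs of proliferation genes and 14 of *Gzma*, and was marked as a doublet by Scrublet, a program that simulates cell pairs. Many of the ratios between the libraries are therefore also given over the 46 and 34 cells of up to 10000 UMIs.

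*Lmo7* itself could not check the labels in these cells. It had 0 counts over the 48 *Lmo7+/+* NK cells, which allows a level of up to 17.8 UMIs per 1000000 NK UMIs (CPM), and 1 count over the 35 *Lmo7-/-* NK cells, or 8.41 CPM. CD8+ T cells had 8.0 CPM in the *Lmo7+/+* library and 5.05 CPM in the *Lmo7-/-* library, and macrophages had 2.82 and 2.47 CPM. The genotypes below are those of the labels.

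The promoters of *Ncr1*, which encodes the activating receptor NKp46, and of *Gzma* and *Gzmc*, which encode granzymes A and C and marked the ends of the range of these cells, are shown because NK cells depend on the T-box factors EOMES and T-bet and on RUNX3. Each is 300 bases, from 250 before the transcription start, as given by RefSeq on GRCm38.p6. Capitals mark the RUNX core TGTGGT, read as ACCACA on the other strand, and the T-box core GGTGTG, read as CACACC. The windows are chr7:4337465-4337764 on the plus strand for *Ncr1*, chr13:113100932-113101231 on the minus strand for *Gzma* and chr14:56234608-56234907 on the minus strand for *Gzmc*, each written 5′ to 3′ along its gene.
Ncr1: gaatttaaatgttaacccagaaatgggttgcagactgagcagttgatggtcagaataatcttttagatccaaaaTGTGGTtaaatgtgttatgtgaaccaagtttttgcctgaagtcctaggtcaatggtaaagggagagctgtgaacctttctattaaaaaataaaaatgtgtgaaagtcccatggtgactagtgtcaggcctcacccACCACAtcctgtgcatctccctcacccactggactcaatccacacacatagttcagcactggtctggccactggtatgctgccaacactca
Gzma: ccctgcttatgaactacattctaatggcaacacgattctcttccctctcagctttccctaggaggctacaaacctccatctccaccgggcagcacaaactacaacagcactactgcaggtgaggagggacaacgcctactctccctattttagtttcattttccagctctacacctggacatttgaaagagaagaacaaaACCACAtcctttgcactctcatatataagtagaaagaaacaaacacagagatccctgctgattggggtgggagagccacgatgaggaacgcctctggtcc
Gzmc: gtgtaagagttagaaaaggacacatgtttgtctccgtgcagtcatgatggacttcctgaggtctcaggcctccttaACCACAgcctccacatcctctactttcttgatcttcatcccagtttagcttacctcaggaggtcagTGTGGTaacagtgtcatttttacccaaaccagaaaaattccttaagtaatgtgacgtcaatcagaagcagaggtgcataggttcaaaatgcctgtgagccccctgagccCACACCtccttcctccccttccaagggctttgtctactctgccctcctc
RUNX cores lay at positions -176 and -41 from the *Ncr1* start shown, -50 from the *Gzma* start, and -174 and -108 from the *Gzmc* start. A T-box core lay at 2 after the *Gzmc* start. RefSeq also gives another *Ncr1* start, whose window is not printed, and from it the same RUNX cores lay at -185 and -50. Of 32851 mouse promoters of this length, 16.8% hold the RUNX core, 19.0% the T-box core and 4.79% both. A match describes the letters of the window and shows no binding.

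The identity of the cells was checked on 16 NK genes that the choice did not use. An NK cell of the *Lmo7+/+* library held UMIs of a median of 9.50 of them, from 1 to 13, and an NK cell of the *Lmo7-/-* library a median of 10.0, from 2 to 13. At least 3 were found in 46 of 48 and 34 of 35 cells. That number does not set them apart from T cells, since several of the 16 genes are shared by killer lymphocytes and at least 3 were also found in 96.8% and 96.6% of CD8+ T cells, whose median was 5.00 in both libraries, against 2.69% and 5.01% of macrophages. Of the 3 cells below that, the *Lmo7+/+* cells had 2353 and 6624 UMIs, held 30 and 70 UMIs of macrophage genes and 18 and 125 of MHC class II genes, and owed their choice to 2 UMIs of *Klrb1c* each. The *Lmo7-/-* cell had 1098 UMIs, with 2 of macrophage genes.

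The 4 genes of the choice differed in how closely they marked these cells. NK cells held 75.0% of all *Ncr1* UMIs of the kept *Lmo7+/+* cells and 82.9% of those of the *Lmo7-/-* cells, and for *Klra8*, the activating receptor Ly49H, 80.4% and 79.2%. *Klrb1c*, the classical NK1.1 antigen, was in between at 51.3% and 45.2%. *Klre1*, a lectin-like receptor, went against the others, with 16.5% and 6.79% of its UMIs in NK cells and 57.4% and 71.5% in T cells. Cells with at least 2 UMIs of the 4 genes that were left out for a *Cd3* UMI numbered 43 and 72, of which 39 and 66 held *Klre1*, 41 and 68 held *Trac* and 38 and 64 held *Cd8a*. They had 181 and 40.4 CPM of *Gzma*, the granzyme that the NK cells carried at over 1000 CPM in either library.

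Just outside the threshold, 36 *Lmo7+/+* and 21 *Lmo7-/-* cells with 1 UMI of the 4 genes had 1109 and 414 CPM of *Gzma* and 635 and 828 CPM of *Il2rb*, a receptor chain for IL-2 and IL-15. Just inside it, 15 and 10 cells with 2 such UMIs had 4577 and 1077 CPM of *Gzma* and 2115 and 2278 CPM of *Il2rb*. Levels of both genes were thus lower outside the threshold in both libraries, though well above 0, so the choice leaves out some cells with NK transcripts.

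**Figure D1:**
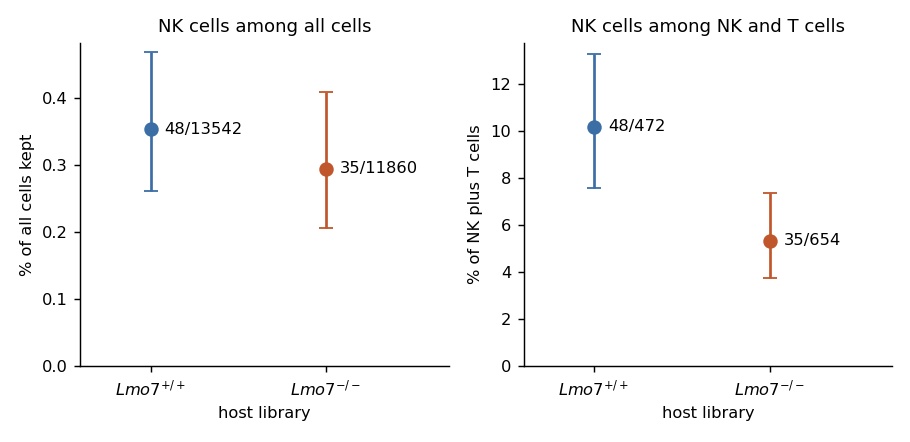
NK cells as a percentage of all kept cells (left) and of NK plus T cells (right), by host library, with 95% exact binomial intervals that cover counting error. The shares of all cells, 0.354% and 0.295%, have overlapping intervals, while the shares of lymphocytes, 10.2% and 5.35%, do not.

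Of all kept cells, NK cells made up 0.354% (0.261 to 0.470) in *Lmo7+/+* and 0.295% (0.206 to 0.410) in *Lmo7-/-*, with exact Clopper-Pearson intervals. The difference was -0.0593 percentage points, with a Newcombe interval of -0.201 to 0.0849, so no difference was detectable at this number of cells. Of NK plus T cells, where a T cell had at least 2 *Cd3* UMIs, *Lmo7+/+* NK cells were 48 of 472, 10.2% (7.59 to 13.3), and *Lmo7-/-* NK cells were 35 of 654, 5.35% (3.76 to 7.36). That difference was -4.82 points (-8.21 to -1.68). T cells, which make up most of that denominator, were 3.13% of the kept *Lmo7+/+* cells and 5.22% of the kept *Lmo7-/-* cells. Its interval reached 0 when cells needed 1000 genes, 2000 UMIs and a mitochondrial share of up to 10%, at -3.80 points (-8.07 to 0.0595), when *Ncr1* and *Klrb1c* alone were counted, at -2.25 (-5.11 to 0.293), and when *Cd3* UMIs were allowed, at -2.80 (-7.41 to 1.67).

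Against the CD8+ T cells of the same library, 188 and 292 cells, the NK cells were compared gene by gene. Of 2596 genes with at least 20 counts, 3.16% were at least 2-fold higher in NK cells in both libraries and 0.424% at least 2-fold lower. Among the identity genes outside the choice, 7 of 15 tested were 2-fold higher in both, namely *Gzma*, *Eomes*, *Tyrobp*, *Txk*, *Cd7*, *Xcl1* and *Car2*, and 0 were 2-fold lower. The 2-fold higher genes were 3 of 7 tested activating receptors, 4 of 11 inhibitory receptors and checkpoints, 2 of 10 adaptors and kinases and 2 of 15 granule and killing genes, and 1 other gene of the adaptors and kinases was 2-fold lower. The cells compared were chosen by their receptors, so genes that go with those receptors are a description of the choice and not a test of it.

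*Gzma*, a tryptase of the cytotoxic granule, was at 4389 CPM in *Lmo7+/+* NK cells against 239.9 CPM in CD8+ T cells, and at 1471 against 101 CPM in the *Lmo7-/-* library, a log2 difference of 4.19 and 3.86. *Tyrobp*, which encodes the adaptor DAP12, stood at 1008 and 1118 CPM against 88.0 and 70.7 CPM. *Fcer1g*, the Fc receptor gamma chain, reached 1845 and 1404 CPM against 247 and 219 CPM. Both adaptors that carry the signals of activating NK receptors were thus well above the T cells in either library. *Klrb1b*, an inhibitory receptor of the NK1.1 family, was at 403 and 429 CPM against 13.3 and 22.2 CPM, although 27.2% of its 50-base sequences are shared with other genes. *Car2*, a carbonic anhydrase, was at 558 and 462 CPM against 33.3 and 23.2 CPM.

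The chemokine gene *Xcl1*, whose product draws cross-presenting dendritic cells, stood at 1234 and 1311 CPM in NK cells against 448 and 296 CPM in CD8+ T cells. *Nrarp*, a target and regulator of Notch signaling, was at 528 and 185 CPM against 30.7 and 21.2 CPM. *Vegfa*, the angiogenic growth factor, was at 445 and 496 CPM against 88.0 and 99.0 CPM, and *Itgax*, which encodes the integrin CD11c, at 421 and 361 CPM against 97.3 and 58.6 CPM. Further genes in this group were *Gzmc*, *Cd7*, *Emb*, *Ctla2a*, *Bcl2l11* and *Lgals3bp*. Receptors that guide lymphocytes also differed. *Ccr2*, a receptor that draws cells out of the bone marrow and into inflamed tissue, was at 231 and 353 against 48 and 39.4 CPM, and *Cxcr4* at 297 and 311 against 45.3 and 62.7 CPM.

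On the T cell side, *Pdcd1*, the checkpoint receptor PD-1, had 0 counts in the NK cells of both libraries against 390.5 and 523 CPM in CD8+ T cells, and *Cxcr6* had 0 and 42.0 CPM against 288 and 381 CPM. *Cst3*, a cysteine protease inhibitor, was at 397 and 429 CPM against 1708 and 1297 CPM. The other genes with the lowest ratios were *Coro1a*, *Tubb5*, *S100a11*, *Ly6a*, *Actg1*, *Stat3*, *Eif3h*, *H2-Aa* and *Rac2*. None of these was 2-fold lower in NK cells of both libraries. The log2 ratios of NK over CD8+ T cells were -0.44 and -0.60 for *Stat3* and -0.41 and -0.67 for *Rac2*. Without the large NK cells described above they were -0.03 and -0.27, and -0.05 and -0.17. *Tubb5* alone moved further down in both libraries, from -0.72 and -0.71 to -0.99 and -1.21. The granule and killing list as a whole summed to 16382 and 10424 CPM in NK cells, against 6046 and 8286 CPM in CD8+ T cells. Some single genes of killer lymphocytes were less than 2-fold apart between the cell types. *Nkg7*, a granule membrane gene, was at 996 and 984 CPM in NK cells against 1198 and 1389.5 CPM in CD8+ T cells, *Prf1*, or perforin, at 421 and 319 against 257 and 391 CPM, and *Klrd1*, the CD94 chain, at 374 and 345 against 374 and 436 CPM.

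**Figure D2:**
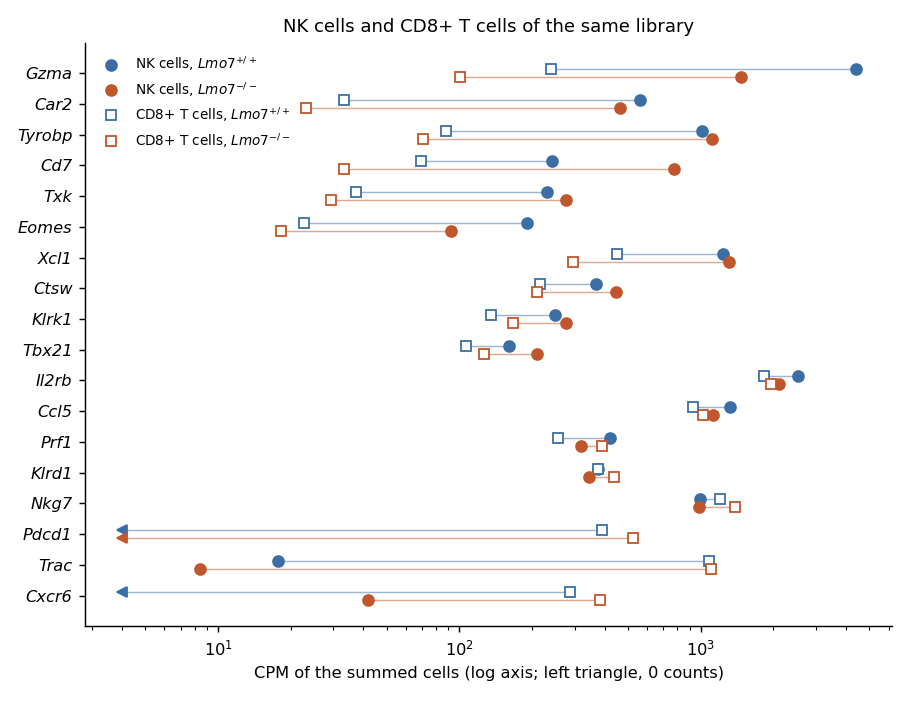
Level of NK identity genes and of T cell genes in CPM of the summed cells, on a log axis, in NK cells and in CD8+ T cells of each library, where a left-pointing triangle marks 0 counts. *Gzma*, *Tyrobp* and *Car2* lie far to the right in NK cells of both libraries, while *Nkg7*, *Prf1* and *Klrd1* overlap with the T cells.

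Genes of other cell types were measured in the same cells. The T cell list summed to 1773 CPM in *Lmo7+/+* and 1757 CPM in *Lmo7-/-* NK cells, against 6145 and 6488 CPM in CD8+ T cells. Its most abundant gene in NK cells was *Thy1*, and *Cd8a*, *Cd5*, *Cd6*, *Bcl11b*, *Themis*, *Foxp3*, *Cd40lg*, *Tcrg-C1* and *Tcrg-C2* were at 0 in both libraries. *Trac* was at 17.8 and 8.41 CPM against 1078 and 1102 CPM, while *Trbc1* was at 451 and 446 CPM against 299 and 256 CPM. *Trbc2*, the other T cell receptor beta constant gene, had 21 and 30 counts, 125 and 252 CPM, with a log2 ratio between the libraries of 1.02 (0.17 to 1.90), the 1 of 5 tested genes of the list past 2-fold. Its thinned share was 8.33% of *Lmo7+/+* and 34.3% of *Lmo7-/-* NK cells, a difference of 26.0 points (8.43 to 43.3), against 71.8% and 68.2% of CD8+ T cells. The part of T cell transcripts in other differences was not tested. The macrophage list summed to 1020.2 and 799 CPM against 13824 and 18427 CPM in macrophages, with *Ccr2* most abundant and *Fcgr1* and *Mrc1* at 0. The dendritic cell list summed to 967 and 177 CPM, with *H2-Ab1* most abundant, and *Flt3*, *Xcr1*, *Clec9a*, *Cd209a*, *Ccl22* and *Siglech* were at 0. Of the genes of type 2 and type 3 innate lymphoid cells, 9 of 12 were at 0.

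The most abundant genes outside mitochondrial and ribosomal protein genes were housekeeping and MHC class I genes. *Actb*, the cytoskeletal beta-actin, was at 10350.2 and 8465 CPM, *Tmsb4x*, which binds actin monomers, at 6957 and 7986 CPM, and *Eef1a1*, a translation elongation factor, at 7485 and 7204 CPM. *Cfl1*, *Tpt1*, *B2m*, *Ptma* and *Actg1*, with *H2-D1* and *H2-K1*, completed the 10, and the log2 ratios between the libraries of the 10 ran from -0.29 to 0.36.

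Between the libraries, 2600 genes had at least 20 counts in NK cells over both, of which 5.65% were at least 2-fold higher in the *Lmo7-/-* library and 6.69% at least 2-fold lower, and their median log2 ratio was -0.03. Over the cells of up to 10000 UMIs, these shares were 3.86% and 5.62% of 1708 genes. The 15 tested genes of granules and killing held 0 that were 2-fold higher and 5 that were 2-fold lower, *Gzma*, *Gzmb*, *Gzmd*, *Gzme* and *Ctsc*, with a median log2 ratio of -0.32. Cell filters moved that median, to -0.05 when cells needed 200 genes and 500 UMIs with up to 25% mitochondrial UMIs, and to -0.80 with *Ncr1* and *Klrb1c* alone as the genes of the choice. Without the large cells, 4 of the 15 were 2-fold lower.

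*Gzma* was 1 of the 5. It had 740 counts, or 4389 CPM (4079 to 4717), in *Lmo7+/+* NK cells and 175 counts, or 1471 CPM (1261 to 1706), in *Lmo7-/-* NK cells. The log2 ratio was -1.58 (-1.82 to -1.34), -1.68 over cells of up to 10000 UMIs and -1.50 without the cell with most *Gzma* in each library. Over all 13 alternatives it ran from -2.60, with cells chosen on *Ncr1* and *Klrb1c* alone, to -1.04, when cells needed 200 genes and 500 UMIs. The difference lay partly in how many cells held the gene. With each cell thinned to 1000 UMIs, 68.8% (53.7 to 81.3) of *Lmo7+/+* and 42.9% (26.3 to 60.6) of *Lmo7-/-* NK cells had a *Gzma* UMI, a difference of -25.9 points (-44.6 to -4.36), and 79.2% and 45.7% did so before thinning. The thinned share was 6.38% and 4.11% in CD8+ T cells and 0.0728% and 0.0642% in macrophages, which should lack the gene and had median depths of 5337 and 4626 UMIs. In CD8+ T cells *Gzma* was also lower in the *Lmo7-/-* library, at 101 against 239.9 CPM.

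*Gzmb*, the main granzyme of activated killers, was at 3061 CPM in *Lmo7+/+* and 1421 CPM in *Lmo7-/-* cells, with a log2 ratio of -1.11 (-1.37 to -0.85). One *Lmo7+/+* cell held 39.5% of its counts, and over cells of up to 10000 UMIs the ratio was -0.56 (-0.85 to -0.27). Thinned shares of cells with a *Gzmb* UMI were 58.3% and 57.1%, a difference of -1.19 points (-21.9 to 19.3). A gap in *Gzmb* thus showed in the level, while none was detectable in the number of cells.

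*Gzmc*, a granzyme of the same gene cluster, was at 2717 CPM against 2169 CPM, a log2 ratio of -0.32 (-0.55 to -0.10), but a single *Lmo7+/+* cell held 63.8% of that library's counts. Without the top cell of each library the counts were 166 and 213, and the log2 ratio was 0.86 (0.56 to 1.16), so its direction rested on 1 cell. Thinned shares of cells with *Gzmc* were 31.2% and 45.7%, a difference of 14.5 points (-6.29 to 34.1). *Gzmd* had 70 counts in 4 cells and 21 in 1 cell, and *Gzme* 41 counts, 97.6% of them in 1 cell, and 12 counts. Of the 50-base sequences of *Gzmd* 21.9% occur in other genes, and of those of *Gzme* 20.6%, so reads may have been split or lost between them. *Ctsc*, the protease that activates granzymes, had 33 counts against 6, a log2 ratio of -1.96 (-3.50 to -0.68). It is also a macrophage gene, with a UMI in 77.8% and 82.8% of macrophages after thinning, and 14 of its *Lmo7+/+* counts lay in 2 cells with neither *Gzma* nor *Gzmc*. In *Gzma*-led cells, those with more UMIs of *Gzma* than of *Gzmc*, it was at 138 and 122 CPM. In *Gzmc*-led cells, those with more of *Gzmc*, it was at 153 and 21.4 CPM, on 5 counts and 1 count. The part of macrophage transcripts in its ratio was not tested.

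The killing genes that follow did not pass 2-fold between the libraries, though the interval of *Srgn* left out 0. *Nkg7* was at 996 and 984 CPM, a log2 ratio of -0.02 (-0.37 to 0.33), and *Serpinb9*, which shields a killer from its own granzyme B, at 896 and 857 CPM, with -0.06 (-0.44 to 0.31). *Prf1* was at 421 and 319 CPM, with -0.40 (-1.01 to 0.19), and *Ctsw* at 368 and 446 CPM, with 0.28 (-0.28 to 0.83). *Srgn*, the proteoglycan that packs granules, was at 1239.6 and 967 CPM, with -0.36 (-0.70 to -0.02).

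Among receptors, 1 of 10 activating genes was 2-fold higher in the *Lmo7-/-* library and 0 were lower, with a median log2 ratio of 0.15, which was also 0.15 over the 7 genes left without *Ncr1*, *Klrb1c* and *Klra8*, genes of the choice. The higher gene was *Cd2*, an adhesion receptor, at 65.2 and 159.7 CPM. *Klrk1*, the activating receptor NKG2D, was at 249 and 277 CPM. Of the 4 tested Ly49 genes, which include *Klra8*, 0 passed 2-fold. *Klra4*, which encodes the activating Ly49D, was at 243 and 345 CPM, and *Klra7*, the inhibitory Ly49G, at 214 and 227 CPM. Ly49 sequences overlap, with 33.1% of the 50-base sequences of *Klra8* and 31.5% of those of *Klra9* shared with other genes against 4.68% for *Klra4*, and values of single members are uncertain to that extent.

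Inhibitory receptors and checkpoints gave 1 of 12 genes higher and 0 lower, with a median of -0.23, or -0.12 without *Klre1*, a gene of the choice. Without the large cells *Nr4a1*, an immediate early gene on that list, turned from -0.34 to 2-fold higher and the median was -0.10. *Klrc1*, which forms the inhibitory NKG2A receptor with CD94, was at 107 CPM (18 counts) in the *Lmo7+/+* library and 269 CPM (32 counts) in the *Lmo7-/-* library, a log2 ratio of 1.33 (0.46 to 2.25) or 1.16 without the large cells, and in 16.7% and 25.7% of cells after thinning, a difference of 9.05 points (-8.28 to 27.2). Thinned to 1500 UMIs, those shares were 23.5% and 23.1%. Its partner *Klrd1* was at 374 and 345 CPM. The adaptors and kinases gave 0 of 10 higher and 1 lower, which was *Ptpn6*, the SHP-1 phosphatase used by inhibitory receptors, with 32 and 7 counts and a log2 ratio of -1.69 (-3.11 to -0.48). *Tyrobp* was at 1008 and 1118 CPM, with 0.15 (-0.19 to 0.48), and *Fcer1g* at 1845 and 1404 CPM, with -0.39 (-0.67 to -0.12).

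Of the 9 tested cytokine receptor and signaling genes, 1 was higher and 0 were lower, with a median of -0.17, and without the large cells *Ifnar1* was lower too, at -1.16 beside -1.0 over all cells, and the median was -0.02. *Stat4*, which relays IL-12, had 14 and 27 counts, a log2 ratio of 1.45 (0.47 to 2.50), and *Il2rb* was at 2533 and 2110.0 CPM, with -0.26 (-0.49 to -0.04). Cytokine and chemokine genes made by NK cells gave 0 of 5 higher and 1 lower, with a median of -0.23, or -0.63 over 4 genes without the large cells, and the 1 was *Ccl1*, of which 97.3% of its 37 *Lmo7+/+* counts lay in 1 cell against 0 counts in the *Lmo7-/-* library. *Xcl1* was at 1234 and 1311 CPM, with 0.09 (-0.22 to 0.39), and *Ccl5*, which draws T cells and myeloid cells, at 1317 and 1126 CPM, with -0.23 (-0.55 to 0.09). The *Lmo7-/-* cell over 10000 UMIs held 36.6% of that library's *Ccl5*, and without the large cells the log2 ratio was -0.87. Its direction turned with the filter on cells, to 0.32 when cells needed 200 genes and 500 UMIs, to 0.71 with at least 3 UMIs of the genes of the choice, and to 3.01, on 16 and 90 counts, when cells needed 1000 genes and 2000 UMIs.

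Transcription factors of innate lymphocytes gave 1 of 11 higher and 1 lower, with a median of 0.04, or 1 of 10 higher, 1 lower and -0.17 without the large cells. *Eomes*, which marks NK cells apart from type 1 innate lymphoid cells (ILC1), had 32 counts in *Lmo7+/+* and 11 in *Lmo7-/-* NK cells, a log2 ratio of -1.04 (-2.17 to -0.01), or -1.07 without the large cells. After thinning it was found in 27.1% and 8.57% of NK cells, a difference of -18.5 points (-33.5 to -1.15), against 2.66% and 2.05% of CD8+ T cells. *Tbx21*, which encodes T-bet, had 27 and 25 counts, with 0.39 (-0.45 to 1.23), and *Klf2* had 10 and 17 counts, with 1.27 (0.06 to 2.56), or 5 and 15 counts without the large cells. The level of *Eomes* thus lay on one side in both measures, on few counts.

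The maturation list gave 2 of 7 genes higher and 2 lower, with a median of 0.04. *Cd7*, a surface receptor of early NK cells and ILC, had 41 counts or 243 CPM in *Lmo7+/+* NK cells and 92 counts or 773 CPM in *Lmo7-/-* NK cells. Its log2 ratio was 1.67 (1.12 to 2.24), the same without the large cells, and 1.59 without the top cell of each library. Thinned shares were 22.9% and 45.7%, a difference of 22.8 points (2.35 to 41.5). *Ly6c2*, a mark of mature NK cells, had 15 and 36 counts, with 1.77 (0.86 to 2.74), but after thinning it was found in 7 of 48 and 7 of 35 cells, a difference of 5.42 points (-10.6 to 22.9). The lower pair were *Gzma* and *Itgam*, the integrin CD11b, with 18 and 4 counts. *Itgam* is also a macrophage gene, with a UMI in 34.2% and 36.7% of macrophages after thinning. Of its *Lmo7+/+* counts, 7 lay in 2 cells with neither *Gzma* nor *Gzmc*. The part of macrophage transcripts in its ratio was not tested.

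*Kit*, the stem cell factor receptor of early lymphoid cells, was outside the tested genes, with 2 counts in 2 of 48 *Lmo7+/+* cells and 16 counts in 11 of 35 *Lmo7-/-* cells. After thinning it was seen in 0 of 48 *Lmo7+/+* cells, where a share as high as 6.25% could still give no count, and in 8 of 35 *Lmo7-/-* cells, 22.9% (10.4 to 40.1), a difference of 22.9 points (9.77 to 39.0), against 1.60% and 1.37% of CD8+ T cells and 0.170% and 0.150% of macrophages. Of the 5 tested ILC1 and tissue residence genes, 1 was higher and 0 were lower, with a median of 0.37. The 1 was *Gpr183*, an oxysterol receptor, with 9 and 23 counts and a log2 ratio of 1.86 (0.69 to 3.15). Without the large cells *Tmem176b*, a gene found in ILC, also passed 2-fold, at 1.84, and the median was 0.24. *Itga1*, the CD49a integrin, was at 119 and 118 CPM. The homing list gave 0 of 11 higher and 1 lower, with a median of 0.07. Without the large cells it gave 2 higher and 1 lower, with a median of 0.24. The lower gene over all cells was *Itgam*, also a macrophage gene, as given above.

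**Figure D3:**
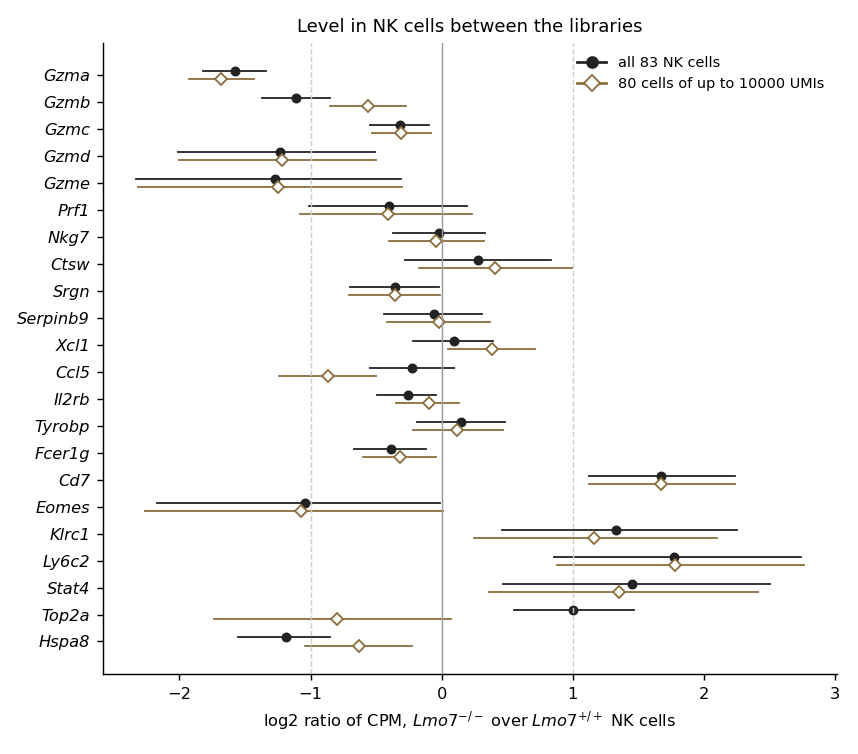
Log2 ratio of CPM, *Lmo7-/-* over *Lmo7+/+*, for genes of the NK cells, over all 83 cells (filled circles) and over the 80 cells of up to 10000 UMIs (open diamonds), with 95% intervals for counting error and dashed lines at 2-fold. *Gzma* and *Cd7* keep their place in both sets of cells, while *Gzmb*, *Ccl5*, *Hspa8* and *Top2a* shift.

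Of the 24 genes at both extremes of the ratios, 12 on either side, among those of 100 counts or more, several were decided by a single cell. *Mt2*, a metallothionein, led the higher genes with 119 and 739.8 CPM, but 79.5% of its *Lmo7-/-* counts lay in 1 cell, and the log2 ratio was 2.64 over all cells and 1.69 without the large ones. *Igfbp4* followed at 2.48, with 95.6% of its *Lmo7-/-* counts in 1 cell and 0.26 without the large cells. *Tes*, *Scd2*, *Top2a*, *Bsg*, *Prkar1a*, *Cap1*, *Tuba1a* and *Clic1* had log2 ratios of 0.80 to 1.06. Without the large cells *Scd2* and *Top2a* turned to -0.54 and -0.80, *Bsg*, *Tes* and *Tuba1a* were at 0.06, 0.25 and 0.37, and *Prkar1a*, *Clic1* and *Cap1* were at 0.55, 0.56 and 0.83. *Ly6a*, the Sca-1 antigen, stood at 249 and 513 CPM, with 61.9% of its *Lmo7+/+* counts in 1 cell and a ratio of 1.04 over all cells and 2.07 without the large ones. *Cd7*, the other gene among the 12 higher ones, is described above.

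At the lower end, *H2-Ab1* at -3.27 and *H2-Aa* at -1.81, both MHC class II genes of antigen-presenting cells, had 63.3% and 52.8% of their *Lmo7+/+* counts in 1 cell. Without the top cell of each library they were at -1.64 and -0.66. *H2-Ab1* was at -0.49, on 17 and 9 counts, and *H2-Aa* at 0.82 over cells of up to 10000 UMIs with at least 3 identity genes, which turned the direction of *H2-Aa*. The dendritic cell sum given above includes *H2-Ab1*, which made up 150 of its 163 *Lmo7+/+* and 11 of its 21 *Lmo7-/-* UMIs, so that sum adds nothing to it. The macrophage sum was also higher in the *Lmo7+/+* NK cells, at 1020.2 against 799 CPM. That sum includes *Ccr2*, its most abundant gene, and *Ly6c2*, which were both higher in the *Lmo7-/-* NK cells. Of its 172 *Lmo7+/+* UMIs, 30 and 70 lay in the 2 cells with fewer than 3 identity genes. The part of macrophage and dendritic cell transcripts in other differences was not tested. *Nrarp* had 89 counts in 30 cells and 22 in 13 cells, with -1.51 (-2.26 to -0.83) and -1.69 without the large cells. *Hspa8*, a chaperone, was at -1.19 and -0.63, *Nr4a2* at -0.85 and -0.69, and *Psap*, a lysosomal protein, at -0.86 and -1.69. *Psap* turned to 0.27 in cells with at least 3 UMIs of the 4 genes of the choice and was at 0.05 in cells with at most 2 UMIs summed over *Lyz2*, *Apoe*, *Csf1r* and *Cd68*. *Hsp90aa1*, *Jun*, *Ier2* and *Ybx3* ran from -1.07 to -0.98 over all cells and from -0.48 to 0.43 without the large ones.

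Programs of activity and stress showed the same dependence on large cells. Of 18 tested immediate early and heat shock genes, 9 were 2-fold lower in the *Lmo7-/-* library and 0 higher, with a median log2 ratio of -1.0, but the median was -0.04 with 0 lower and 1 higher of 14 without the large cells. Of 19 proliferation genes, 6 were higher and 0 lower with a median of 0.64, against 1 of 8 higher and a median of 0.24 without them. Hypoxia and glycolysis genes had a median of 0.50 over 19 genes and -0.02 over 12. Interferon lists kept the sign of their medians without the large cells. Of 10 tested type I interferon response genes 3 were lower, *Ifi47*, *Irf9* and *Trim30a*, and 0 higher with a median of -0.68, or 1 lower of 5 and -0.94 without the large cells. Of 16 interferon gamma response genes 1 was lower, *Gbp2*, with medians of 0.20 and 0.21.

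Cells rich in proliferation transcripts were a minority. Thinned to 1000 UMIs, 12.5% (4.73 to 25.2) of *Lmo7+/+* NK cells and 7 of 35 (8.44 to 36.9%) *Lmo7-/-* NK cells held at least 5 UMIs of the proliferation list, against 35.1% and 32.9% of CD8+ T cells and 26.8% and 20.6% of macrophages.

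**Figure D4:**
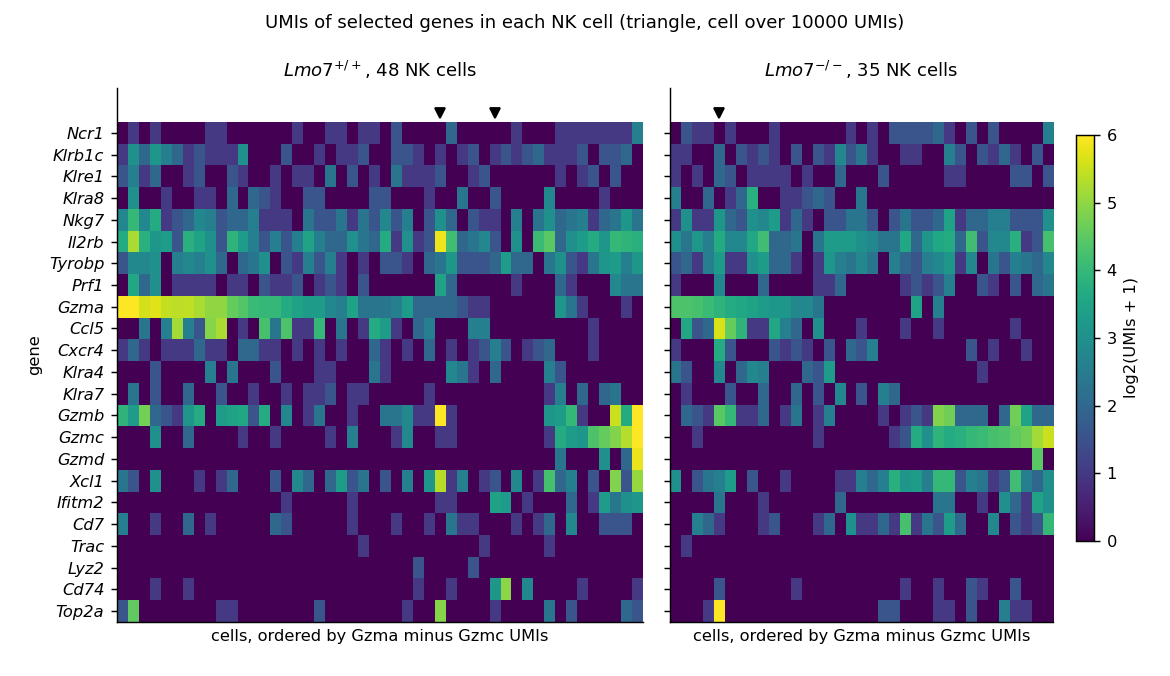
UMIs of selected genes in each NK cell as log2(UMIs + 1), for 48 *Lmo7+/+* and 35 *Lmo7-/-* cells, ordered by *Gzma* minus *Gzmc* UMIs, with triangles over the cells of more than 10000 UMIs. *Il2rb*, *Nkg7* and *Tyrobp* are found along the order in most cells. *Ccl5* lies at the *Gzma* end, and *Ifitm2* and *Gzmd* lie at the *Gzmc* end. *Gzmd* was held by 4 of 9 and 1 of 15 *Gzmc*-led cells. Of the 4 *Lmo7+/+* cells of up to 10000 UMIs with neither *Gzma* nor *Gzmc*, 2 held *Il2rb* and 2 held *Nkg7*. *Xcl1* is higher toward the *Gzmc* end.

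Within either library the cells spread between those led by *Gzma* and those led by *Gzmc*. Of the 46 *Lmo7+/+* cells of up to 10000 UMIs, 33 held more UMIs of *Gzma* than of *Gzmc*, 9 held more of *Gzmc* and 4 were tied. The same split of the 34 *Lmo7-/-* cells gave 13, 15 and 6. Cells with UMIs of both genes numbered 13 and 4, 9 cells in each library lay within 2 UMIs of a tie, and the tied cells held 0 UMIs of either gene. The split is a cut on counts and names no cell type. *Gzmc*-led cells were 19.6% (9.36 to 33.9) in the *Lmo7+/+* library and 44.1% (27.2 to 62.1) in the *Lmo7-/-* library, a difference of 24.6 points (4.13 to 43.2). The split was chosen after the values were seen and uses both genes, so these shares are a description. *Gzmc*-led cells were also deeper, with median UMIs of 3138 and 2954 against 1651 and 1854 in *Gzma*-led cells.

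**Figure D5:**
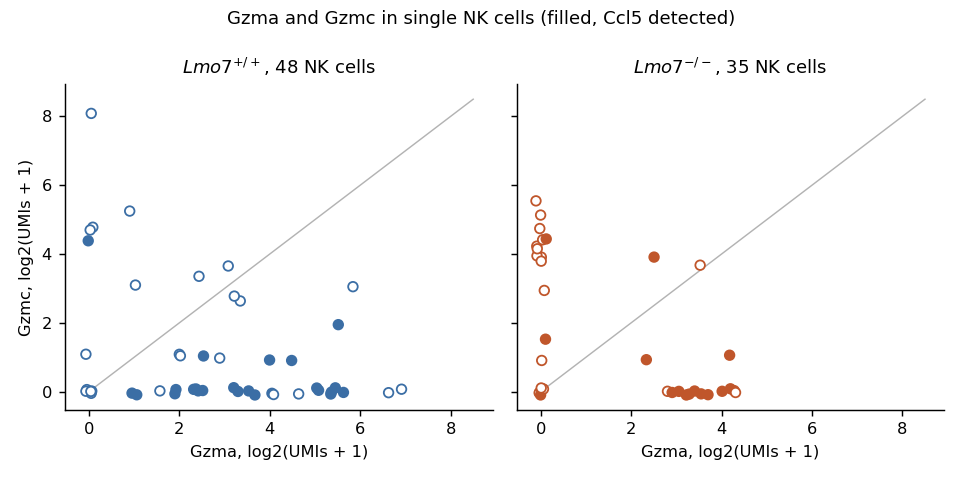
*Gzmc* against *Gzma* in single NK cells as log2(UMIs + 1), by library, each point 1 cell with a small random offset so that equal cells can be seen, filled where the cell held a *Ccl5* UMI, with the diagonal marking equal counts. Filled points lie mostly below the diagonal, and few cells are high in both genes.

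Other genes followed that order in both libraries. Of 558 genes with at least 40 counts in these cells, 1.61% were at least 2-fold higher in *Gzma*-led cells in both libraries and 1.97% in *Gzmc*-led cells in both. *Ccl5* had 221 counts in the 33 *Gzma*-led and 1 in the 9 *Gzmc*-led cells of the *Lmo7+/+* library, and 81 in 13 and 3 in 15 cells of the *Lmo7-/-* library. In CPM it was at 3052 against 30.7 and at 3283 against 64.3, so the chemokine was nearly absent from *Gzmc*-led cells in either host. *Cxcr4*, the CXCL12 receptor, was at 497 against 123 CPM and 365 against 85.7 CPM, and *Dusp2*, a phosphatase of MAP kinases, at 1933 against 889 and 2310.3 against 921 CPM. *Pim1*, *Ppm1g*, *Ier5*, *Nr4a1*, *Klre1* and *Malat1* were the others higher in *Gzma*-led cells, and *Klre1* was among the genes of the choice.

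At the *Gzmc* end, *Xcl1* was at 2760.3 CPM against 953 CPM in the *Gzma*-led cells of the *Lmo7+/+* library and at 2379 against 1013 CPM in the *Lmo7-/-* library. *Ifitm2*, an interferon-induced membrane protein, had 32 counts in 9 cells against 3 in 33 cells, and 37 in 15 cells against 1 in 13 cells. *S100a4*, a calcium-binding protein, was at 889 against 428 CPM and 2014 against 324 CPM. *Gzmd*, *Gzme*, *Itm2c*, *Nrgn*, *Ifitm3*, *Rgs1*, *Calr* and *B4galnt1* also belonged here. Of these, *Gzmd* was held by 4 of 9 *Lmo7+/+* and 1 of 15 *Lmo7-/-* *Gzmc*-led cells, and *Gzme* by 2 of 9 and 2 of 15. As given above, reads of *Gzmd* and *Gzme* may have been split or lost between them. *Xcl1* and *Ccl5*, both NK chemokines, were thus higher at opposite ends of the order in both libraries. *Xcl1* was not confined to its end, with a UMI in 19 of 33 and 6 of 13 *Gzma*-led cells. Single *Gzmc*-led cells of the *Lmo7+/+* library held 32 and 28 of its 90 counts there.

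Not every NK gene divided this way, and *Il2rb* and *Tyrobp* were less than 2-fold apart between the ends in both libraries. *Il2rb* was at 3356 CPM in *Gzma*-led and 3128 CPM in *Gzmc*-led cells of the *Lmo7+/+* library, and at 3161 and 2507 CPM in the *Lmo7-/-* library. *Tyrobp* was at 1381 and 1472 CPM, and at 1499.7 and 1286 CPM. Ly49 genes and *Kit* were less even. A UMI of any of the 6 Ly49 genes was found in 28 of 33 *Gzma*-led and 6 of 9 *Gzmc*-led cells of the *Lmo7+/+* library, and in 11 of 13 and 4 of 15 cells of the *Lmo7-/-* library, although *Gzmc*-led cells were deeper. One of the 6, *Klra8*, was a gene of the choice, and with the other 5 alone these were 27 and 6 cells, and 10 and 4 cells. Over all NK cells the share with any of the 6 was 72.9% and 57.1%, with up to 4 Ly49 genes in a cell, and with the other 5 alone 70.8% and 54.3%.

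*Kit* had 0 and 2 counts in the *Gzma*-led and *Gzmc*-led cells of the *Lmo7+/+* library and 1 and 13 counts in those of the *Lmo7-/-* library, where 8 of the 15 *Gzmc*-led cells held it. *Tmem176b* had 0 and 3, and 0 and 12 counts. *Eomes* was at 290 and 245 CPM in the *Lmo7+/+* library and at 243 and 21.4 CPM in the *Lmo7-/-* library, and *Cd7* at 331 and 460.1, and at 486 and 1371 CPM. The *Eomes* levels of *Gzmc*-led cells rest on 8 counts and 1 count, and whether the libraries differed more at one end of the order than at the other was not tested. *Gzma* itself, within *Gzma*-led cells, was at 9984 CPM in the *Lmo7+/+* library and 5918 CPM in the *Lmo7-/-* library.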

How the data were processed

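The deposited values were counts of UMIs per gene and droplet, made by the authors with Cell Ranger 2.1.1 on mm10 according to the submitters' processing notes, while the matrices name format version 3.0.0 in their headers. Replicates were not pooled, since each genotype had 1 library, and 0 columns of other samples were present. Cell, T cell (at least 2 *Cd3* UMIs) and macrophage (at least 10 *C1q* UMIs) choices used raw counts. CD8+ T cells also had at least 1 UMI of *Cd8a* or *Cd8b1*, none of *Cd4* and none of the 4 NK genes. Counts were summed over the NK cells of a library and given as CPM with exact Poisson intervals. Log2 ratios were taken for genes that reached 20 counts in the NK cells of both libraries together, with the Clopper-Pearson interval of the split of counts, and called at 2-fold. Shares of cells with a UMI used cells thinned to 1000 UMIs (seed 1), and the *Gzma* and *Gzmc* split added 0.5 counts before its ratios. Scrublet, run through scanpy 1.11.5, marked 3.01% of *Lmo7+/+* and 2.86% of *Lmo7-/-* cells (0 and 1 NK cells), which were kept. The study's comparison over single cells was not used, as cells are not replicates.

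Members and gene lists were chosen with earlier results of these data known. Named were *Lmo7*, genes of the lists, the 12 highest and 12 lowest log2 ratios at 100 counts or more, the 15 highest and 10 lowest against CD8+ T cells, and the 10 most abundant genes, without mitochondrial and ribosomal protein genes. *Pdcd1*, *Kit* and other genes below 20 counts come from the lists, and genes of the *Gzma* and *Gzmc* split were chosen after their values were seen. Promoters came from RefSeq on GRCm38.p6, and 50-base sharing was computed on GENCODE M21 transcripts. Calculations used Python 3.11.15, numpy 2.4.6, scipy 1.17.1, pandas 2.3.3 and matplotlib 3.10.9, with TMM library sizes from edgeR 4.0.16 in R 4.3.3, and were tested on simulated data.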

Additional observations from a re-analysis of the deposited data

Results flagged for a closer look

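The genes below had ratios between the libraries of opposite sign in NK cells and in CD8+ T cells, and for each the difference between the cell types was not tested. *Cd7* had a log2 ratio of 1.67 in NK cells and -1.06 in CD8+ T cells, where it was at 69.3 and 33.3 CPM, and 1.59 in NK cells without the top cell of each library. *Gzmb* was at -1.11 in NK cells and 0.73 in CD8+ T cells, with 1117 and 1854 CPM in the latter, and at -0.84 without the top NK cells. *Gzmc* was at -0.32 against 2.39, with 56.0 and 294 CPM in CD8+ T cells, and at 0.86 in NK cells without the top cells, which is the direction of the T cells. *Gzmd* was at -1.23 against 4.62, and 14 and 0 counts remained in NK cells without the top cells. *Gzme* was at -1.27 against 4.44, with 1 and 1 counts without them. *Srgn* was at -0.36 against 0.19, and at -0.36 without the top cells.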

How the results depend on the processing

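The settings without cells over 10000 UMIs and with *Cd3* UMIs allowed were chosen after the data were seen. No paired analysis was possible because each genotype has 1 library. Of 72 values under alternatives for the 7 results that answer a comparison, 62 lay within the interval of the reported value, or within 1.5 times a reported number of genes, and the 10 outside were the numbers of genes below. An interval can hold the other sign, and the difference in the NK share of all cells, -0.0593 points, was 0.00298 with *Ncr1* and *Klrb1c* alone. The number of genes 2-fold higher in the *Lmo7-/-* library, 147, became 69 with the *C1q* sum at 0, 66 without cells over 10000 UMIs, 69 with that and at least 3 identity genes, 22 at 50 counts or more and 846 with no minimum beyond more than 3 counts in 1 library. The number 2-fold lower, 174, became 96, 74, 27 and 977 under the last 4 of these and 267 as a mean over cells of CPM per cell. Fewer or more genes were tested in these settings, other than the mean over cells, for which the cause was not tested. Of 507 values for 39 named genes, 409 lay within the reported interval and 34 had the other sign, 14 of them for genes past 2-fold. Of 135 medians of lists or of all genes, 116 lay within the interval of the list median, or close to the reported median of all genes, which had no interval. Of the 135, 18 had the other sign. *Jun* (main -1.02) was 0.90 with *Ncr1* and *Klrb1c* alone, 0.12 with *C1q* at 0, 0.43 without the large cells, 0.24 with identity genes also required and 0.16 as a mean over cells. *Scd2* (1.05) was -1.0, -0.54 and -0.40, and *Top2a* (1.0) -0.89, -0.80 and -0.90, with *C1q* at 0, without the large cells and with identity genes also required. *H2-Aa* (-1.81) was 0.82 under the last of these. *Gzmd* (-1.23) and *Gzme* (-1.27) were 0.12 and 0.48 as a mean over cells. Beyond the removal of the cells named, the cause was not tested.

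Over 13 alternatives the log2 ratio of *Gzma* ran from -2.60 to -1.04, of *Cd7* from 1.43 to 2.12, of *Eomes* from -1.49 to -0.86 and of *Nrarp* from -1.93 to -1.0, while that of *Gzmb* ran from -1.40 to -0.43, of *Gzmc* from -1.23 to 0.40 and of *Ccl5* from -1.09 to 3.01. The median of the granule list, -0.32, ran from -0.80 to -0.05. The 3.01 of *Ccl5* came from cells of at least 2000 UMIs, with 16 and 90 counts. Of the 90, 49 lay in the *Lmo7-/-* cell of 36357 UMIs that Scrublet marked as a doublet, and the cause of the turn was not tested. The limits are 1 library for each genotype, 83 cells, 3 of them over 10000 UMIs, and depth per cell.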

Other observations

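Genes that other cells use to reach NK cells were measured on the macrophages of the same libraries. *Cxcl9*, a chemokine for CXCR3-bearing lymphocytes, was at 668 CPM in *Lmo7+/+* macrophages and 1408 CPM in *Lmo7-/-* macrophages, *Cxcl10* at 519 and 676 CPM and *Cxcl16* at 643 and 710.5 CPM. *Il15*, which sustains NK cells, was at 9.73 and 12.3 CPM, and *Clec2d*, a ligand of the inhibitory receptor encoded by *Klrb1b*, at 62.2 and 87 CPM. Within the NK cells, 0 of the 9 tested genes of this list passed 2-fold between the libraries, with a median log2 ratio of 0.16. The most abundant of them, the MHC class I genes *H2-D1* and *H2-K1*, were at 4199 and 5380.1 CPM and at 3061 and 3682 CPM in NK cells.

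Of the B and plasma cell genes 7 of 9 had no count in the NK cells of either library, and the list summed to 101 and 135 CPM, nearly all of it *Ighm*, against 84.0 and 50.5 CPM in CD8+ T cells. *Ighm* had a UMI in 5 of 48 and 7 of 35 NK cells after thinning, against 8.51% and 4.11% of CD8+ T cells and 8.13% and 8.61% of macrophages. Of the neutrophil and mast cell genes 9 of 12 had no count, and the list summed to 17.8 and 0 CPM. The share of all genes without a count was not computed for comparison with these lists.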
